A study of Mus musculus with 18 samples.

Results

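Transcripts of 8 genes that govern turnover of the extracellular matrix were followed across the atria of mice with altered Zfhx3: the matrix metalloproteinases (MMPs) Mmp2, Mmp3, Mmp9 and Mmp14, and the tissue inhibitors of metalloproteinases Timp1, Timp2, Timp3 and Timp4. The genes were taken by symbol from the gene count table, which holds 56691 gene IDs, and all 8 were found and passed the filter on low counts in every comparison. MMPs are zinc-dependent enzymes that are made as inactive precursors and cut collagens, laminins, proteoglycans and other matrix proteins. TIMPs bind active MMPs in their catalytic cleft, and TIMP2 also takes part in the activation of the MMP2 precursor by the membrane-bound enzyme MMP14. In the heart these genes are expressed mainly by fibroblasts, endothelial cells, macrophages and, for some TIMPs, by myocytes, and their balance is studied in atrial enlargement and fibrosis.

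Both the left (LA) and the right atrium (RA) of 9 animals were profiled by mRNA sequencing, 3 each of the genotypes labelled WT, Zfhx3 Het and Zfhx3 KO, with no treatment. The product of Zfhx3 is a large transcription factor with zinc fingers and homeodomains, and variants near human ZFHX3 are associated with atrial fibrillation. The sources used here do not give the kind of allele, the tissue in which it acts, or the animals' age and sex. The columns of WT RA replicates 1 and 2 were identical for all genes and were counted as 1 library, which leaves 17 libraries, n = 2 for WT RA and n = 3 for the other groups.

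Library totals lay between 18000583 counts (WT LA, replicate 3) and 33483085 counts (KO LA, replicate 3). Zfhx3 itself lay between 13.7 and 20.1 CPM (counts scaled to a common library total) in all groups, so its total count does not check the genotype labels. The right-atrial gene Bmp10 (7270 to 9310 CPM in RA, at most 4.89 CPM in LA) fitted the labelled atrium of every library. Every WT library had Xist near 1 CPM with the Y-linked Ddx3y expressed, every Het library had Xist at 578 CPM or more with no Ddx3y count, and KO replicate 1 resembled Het while KO replicates 2 and 3 resembled WT, so the Het difference from WT and a sex difference cannot be told apart. WT LA replicate 3 stood apart: its summed fibroblast markers (15 of 15 detected) were 1630 CPM against 3510 and 4170 CPM in the other WT LA libraries and 4020 to 6250 CPM in Het and KO LA. Its summed macrophage markers (16 of 16 detected) were 137 CPM against 447 to 599 CPM in the other LA libraries. In bulk tissue, fewer cells of a type and less RNA per cell cannot be told apart.

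Levels were compared between genes as CPM per kilobase of exon. The inhibitors Timp2 (median 73.8, range 52.2 to 93.4 over 17 libraries) and Timp3 (median 44.4, range 27.1 to 60.9) were the most abundant. The gelatinase gene Mmp2 followed at a median of 10.3, then the stromelysin gene Mmp3 at 7.25, Mmp14 at 5.32 and Timp1 at 4.55. Timp4 had a median of 1.33 and the gelatinase gene Mmp9 of 1.07 CPM per kilobase. Ranges of neighbours in this order overlapped, whereas the lowest Timp3 value was above the highest of Mmp3 (17.5), Mmp14 (7.98), Timp1 (11.3), Timp4 (4.69) and Mmp9 (2.46). On the CPM scale, the mean of the highest group exceeded that of the lowest by 32.4-fold for Timp4, 4.13-fold for Mmp2, 3.9-fold for Mmp3 and 3.85-fold for Mmp9, but by only 1.28-fold for Timp2 and 1.6-fold for Mmp14. The members thus ranged from nearly even across the groups to far lower in one atrium, and the plot of CPM by library shows each value.

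In GRCm38 the genes lie at chr8:92827291-92853420 (Mmp2), chr9:7445822-7455975 (Mmp3), chr2:164940780-164955850 (Mmp9), chr14:54431612-54445364 (Mmp14), chrX:20870166-20874735 (Timp1), chr11:118301069-118355740 (Timp2), chr10:86300372-86349506 (Timp3) and chr6:115241892-115252205 (Timp4). Timp2 and Timp4 are on the minus strand and the others on the plus strand. Timp1, Timp3 and Timp4 each lie within a synapsin gene on the opposite strand (Syn1, Syn3 and Syn2), with overlapping exons for Timp3 and Timp4; Syn1 had at most 31 counts in a library.

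**Figure D1:**
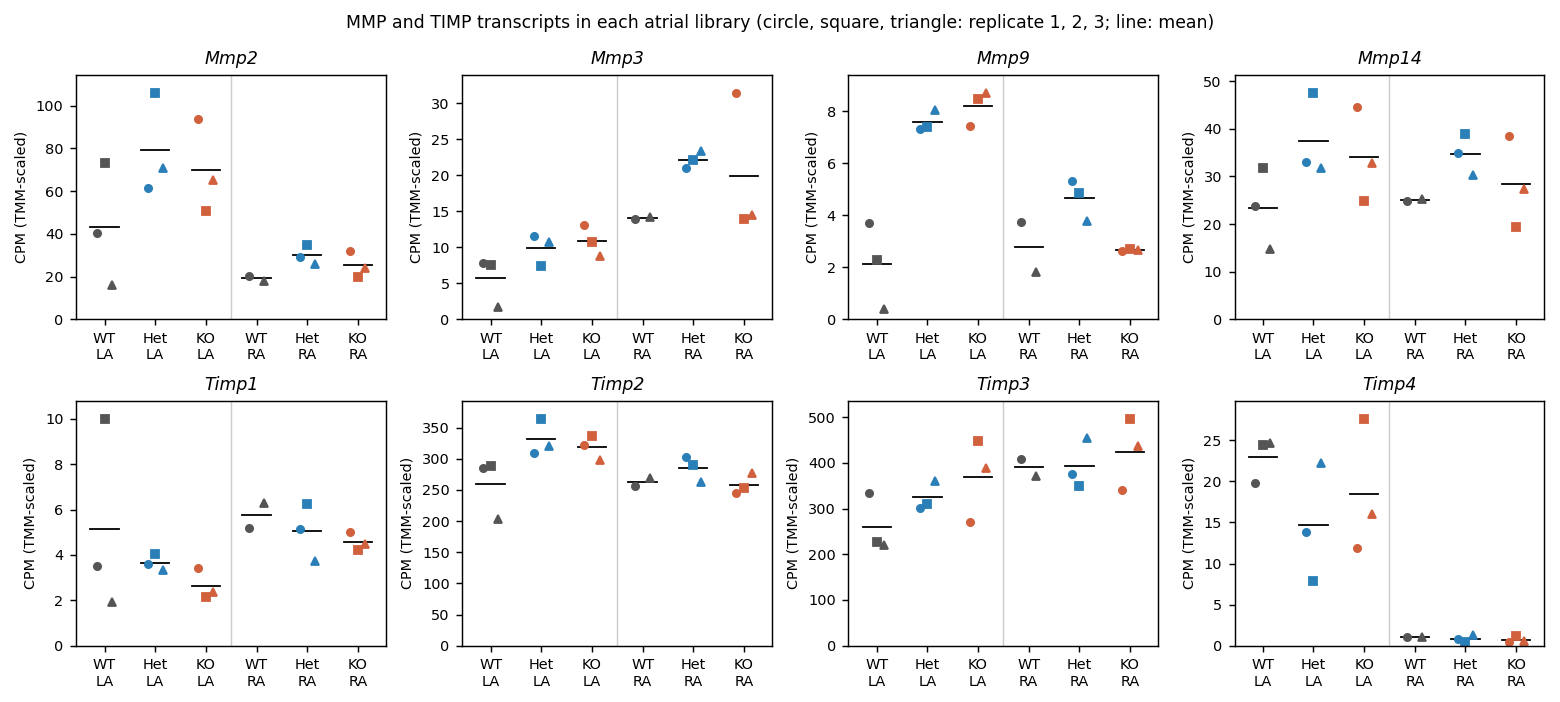
CPM (vertical axis, TMM-scaled) of the 8 genes in the 6 groups of genotype and atrium; each point is 1 library and each line the mean of its group. Timp4 lies between 7.82 and 27.6 CPM in LA and between 0.394 and 1.27 CPM in RA, and Mmp9 is above 7 CPM in every Het and KO LA library and in no other library.

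The first question was whether loss of Zfhx3 changed these genes in the left atrium. Mmp9 rose in KO LA. Of the 8 members, 1 passed the edgeR test (adjusted p under 0.05) for KO against WT, where 7.81% of 16974 genes passed, and 0 passed for Het against WT, where 9.4% passed; this share for the members is near that of all genes. The median log2 difference of the members was 0.49 in each of these comparisons, against 0 over all genes tested, and both comparisons share the WT libraries. WT LA replicate 3 enters both: without it, Mmp2, Mmp3 and Mmp14 differed from WT by log2 0.30, 0.49 and 0.29 in KO, and none passed.

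Mmp9, which encodes gelatinase B, an enzyme known from neutrophils and macrophages that cuts denatured collagen and type IV collagen, was at 3.72, 2.3 and 0.381 CPM in WT LA replicates 1, 2 and 3. It was at 7.34, 7.39 and 8.07 CPM in Het LA and at 7.42, 8.47 and 8.72 CPM in KO LA. All 6 mutant values were above all 3 WT values, and the WT libraries differed more among themselves than the mutants did; groups that do not overlap were found for 30.1% of all genes tested in KO against WT and 32.3% in Het against WT. The mean was 8.21 ± 0.691 CPM in KO LA against 2.13 ± 1.67 CPM in WT LA (SD, n = 3 each). KO exceeded WT by a log2 difference of 1.86 (SE 0.45, 3.64-fold, edgeR adjusted p = 0.0452), and Het exceeded WT by 1.75 (SE 0.46, 3.36-fold, edgeR adjusted p = 0.0504). Between KO and Het the log2 difference was 0.11 (SE 0.40, edgeR adjusted p = 0.988), in a comparison where no member and 0% of genes passed (771 at an unadjusted p under 0.05).

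The KO call for Mmp9 was near the threshold. It passed in 7 of 18 alternatives, with adjusted p from 0.00781 without WT LA replicate 3, where the log2 difference was 1.46, to 0.125 without KO LA replicate 3, and it was lost without WT LA replicate 2 (0.123), without any 1 Het LA library (0.0707 to 0.0758), without any 1 KO LA library (0.104 to 0.125), with only KO and WT in the fit (0.112), with low counts left unfiltered (0.112) and with Xist as a covariate (0.0858). The Het difference passed in 6 of 18 alternatives, among them DESeq2 (adjusted p = 0.0282) and the fit without WT LA replicate 3 (0.00994). Its direction was the same in all 18 alternatives for each genotype.

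Markers of the cells known to make Mmp9 were set beside it. The 14 neutrophil markers summed to 2.22 to 11.6 CPM in WT LA, 3.68 to 6.02 CPM in Het LA and 3.57 to 8.44 CPM in KO LA, with 3 to 7 of the 14 at 0 counts in each library. Single neutrophil genes were low but present: S100a9 had 2 to 57 counts and Csf3r 15 to 110 counts in the LA libraries, whereas Ly6g had at most 1 count. Macrophage markers summed to 474, 513 and 137 CPM in WT LA and to 447 to 599 CPM in the mutants. The part of either cell type in the Mmp9 difference was not tested.

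The other 3 proteases of LA gave no call. Mmp2, which encodes gelatinase A, the fibroblast gelatinase, was at 40.5, 73 and 16.3 CPM in WT, 61.5, 106 and 70.7 CPM in Het and 93.9, 50.8 and 65.4 CPM in KO LA. The genotypes overlapped, and KO differed from WT by log2 0.66 (SE 0.52, edgeR adjusted p = 0.488). Mmp3, whose enzyme activates other MMP precursors, was at 7.81, 7.58 and 1.71 CPM in WT, 11.6, 7.43 and 10.7 CPM in Het and 13.1, 10.7 and 8.79 CPM in KO LA. KO lay above WT without overlap, with a log2 difference of 0.87 (SE 0.44, edgeR adjusted p = 0.268). Mmp14, the membrane-type enzyme, was at 23.9, 31.7 and 14.7 CPM in WT, 33, 47.6 and 31.8 CPM in Het and 44.5, 24.9 and 32.9 CPM in KO LA. KO and WT overlapped for Mmp14, and WT LA replicate 3 was the lowest LA library for Mmp2, Mmp3, Mmp9 and Mmp14 alike.

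The 4 inhibitors of LA gave no call either. Timp1, the inducible inhibitor that binds MMP9, was at 3.49, 9.99 and 1.91 CPM in WT, 3.6, 4.04 and 3.32 CPM in Het and 3.44, 2.13 and 2.36 CPM in KO LA. One WT library was the highest and another the lowest, and the KO minus WT log2 difference of -1.01 (SE 0.51) had an edgeR adjusted p of 0.262. Timp2 was at 286, 288 and 203 CPM in WT, 309, 364 and 321 CPM in Het and 323, 337 and 298 CPM in KO LA, a small shift above WT without overlap (KO log2 0.28, SE 0.12, edgeR adjusted p = 0.162; Het 0.33, SE 0.12, 0.0958). Timp3, the inhibitor that is bound to the matrix, was at 333, 227 and 221 CPM in WT, 302, 311 and 361 CPM in Het and 271, 448 and 388 CPM in KO LA, and the groups overlapped. Timp4, the inhibitor known for its expression in heart muscle, was at 19.8, 24.4 and 24.7 CPM in WT, 13.9, 7.82 and 22.2 CPM in Het and 11.9, 27.6 and 16 CPM in KO LA. The mutants scattered from below to above WT, and the KO minus WT log2 difference was -0.33 (SE 0.42, edgeR adjusted p = 0.678).

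In the right atrium no member passed against WT, and the shares of all genes passing were small as well: 0.523% for KO and 0.57% for Het, of 17201 genes. KO against Het gave no member and 0% of genes in RA (1077 genes at an unadjusted p under 0.05). Mmp9 was at 3.73 and 1.81 CPM in WT RA, 5.33, 4.85 and 3.8 CPM in Het RA and 2.63, 2.72 and 2.66 CPM in KO RA. The KO libraries lay between the 2 WT libraries, and the KO minus WT log2 difference was -0.07 (SE 0.27, edgeR adjusted p = 0.94). Het was above both WT libraries, with a log2 difference of 0.72 (SE 0.27, edgeR adjusted p = 0.245). Het was also above KO without overlap (KO minus Het -0.79, SE 0.23, edgeR adjusted p = 0.778), as in 10.2% of all genes. Mmp2, Mmp3 and Mmp14 in Het RA likewise lay above WT RA without overlap, at log2 0.63, 0.64 and 0.45 (edgeR adjusted p = 0.212, 0.504 and 0.508); with 2 WT libraries, 33.4% of all genes did not overlap in that comparison. The largest KO minus WT difference of any member in RA was -0.57 for Timp4 (SE 0.51, edgeR adjusted p = 0.644), at levels near 1 CPM.

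The difference between the atria in the KO effect was tested itself. For Mmp9 the KO minus WT difference was lower in RA than in LA (interaction log2 -1.95, SE 0.60), and it did not pass over all genes (edgeR unadjusted p = 0.00575, adjusted p = 0.995), where 0% of 18018 genes passed for KO (711 at an unadjusted p under 0.05) and 0% for Het (786). With the animal as a block the log2 value for KO was -2.12 (adjusted p = 0.105) or -2.68 (0.00211), as the WT RA library of uncertain animal was taken as animal 1 or 2. Without a filter on low counts it was -1.94 (adjusted p = 5.66e-08). The Het interaction of Mmp9 was -1.05 (SE 0.59, edgeR adjusted p = 1), and -1.22 (0.274) or -1.78 (0.015) under the blocks. Timp3 also passed under the second block, at -0.59 for KO (adjusted p = 0.00608) and -0.55 for Het (0.0083), and not under the first (0.367 and 0.435). Of all genes, 0.0444% and 0.117% passed for KO and Het under the first block and 0.544% and 0.855% under the second. The call for Mmp9 thus depended on the use of a block, on the animal assigned to 1 library and on the filter.

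**Figure D2:**
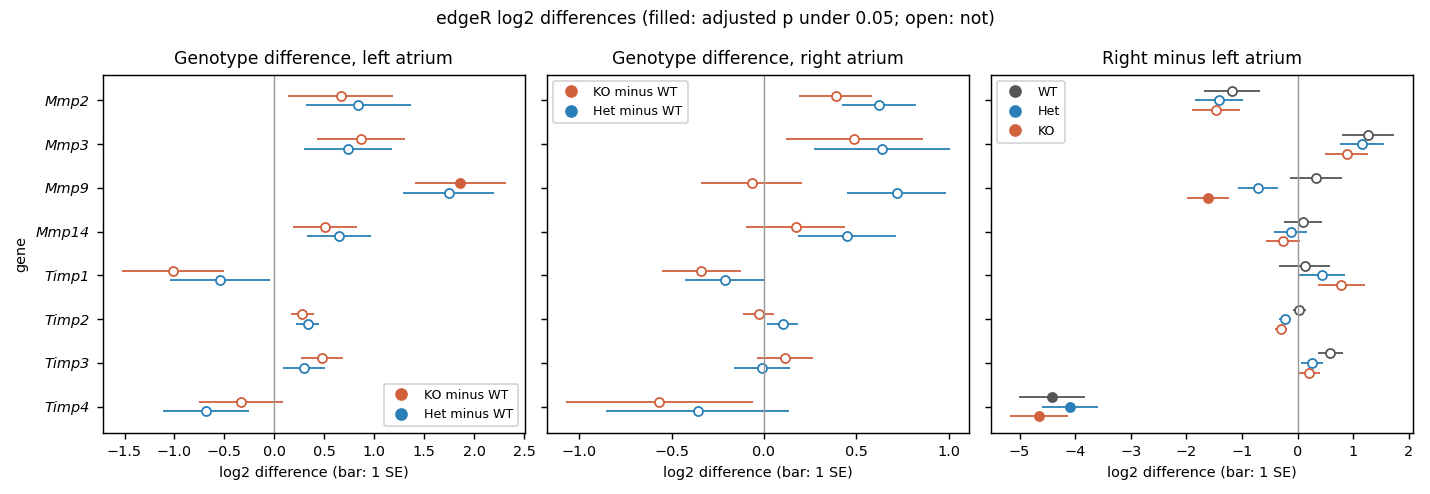
edgeR log2 differences (horizontal axis, bars of 1 SE) of the 8 genes for KO and Het minus WT in LA and in RA, and for RA minus LA in each genotype; filled points have an adjusted p under 0.05. Filled points are Mmp9 for KO in LA, Timp4 for the atria in every genotype, and Mmp9 for the atria in KO; the axes of the 3 panels differ in scale.

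The second question was how the atria of each genotype differ, and here Timp4 fell nearly to the floor of measurement in RA. Of the 8 members, 1 passed for RA against LA in WT, 1 in Het and 2 in KO, where 11.9%, 7.69% and 8.35% of 18018 genes passed. Timp4 was lower in RA in all genotypes, and Mmp9 was lower in RA in KO. LA and RA libraries come from the same animals, and with the animal as a block more members passed: 3 in WT, 4 in Het, and 5 or 4 in KO. The share of all genes passing rose as well, to 18.6% or 21.7% in WT, 16.3% or 15.6% in Het and 15.9% or 15.4% in KO; the first value of each such pair takes the uncertain library as WT animal 1.

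Timp4 was at 1.05 and 1.09 CPM in WT RA, 0.808, 0.407 and 1.27 CPM in Het RA and 0.394, 1.19 and 0.545 CPM in KO RA. The lowest LA library, Het replicate 2 at 7.82 CPM, was above the highest RA library at 1.27 CPM, so LA and RA did not overlap; within a genotype 41.7% (WT), 24.8% (Het) and 26.3% (KO) of all genes did not overlap between the atria. Mean levels in LA were 23 ± 2.78, 14.6 ± 7.2 and 18.5 ± 8.18 CPM in WT, Het and KO (SD, n = 3 each). The WT animals had 21.4-fold less Timp4 in RA (log2 -4.42, SE 0.60, edgeR adjusted p = 0.000487), the Het animals 17.1-fold less (-4.10, SE 0.50, 0.000216) and the KO animals 25.2-fold less (-4.66, SE 0.52, 9.16e-05). The call held in 25 of 25 alternatives in each genotype. In the 7 animals with both atria known, LA exceeded RA by 17.2 to 30.1-fold.

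Timp4 lies within the synapsin gene Syn2 on the opposite strand, and no source used here says whether counting was by strand. Syn2 was at 8.77 to 30.2 CPM in LA and 4 to 14.7 CPM in RA, and for RA minus LA it gave a log2 difference of -0.92 (WT), -0.95 (Het) and -0.62 (KO). That difference is smaller than the one of Timp4. How far reads of either gene were counted for the other was not tested.

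The stretch before the Timp4 start site is shown because Timp4 has the largest atrial difference of the members. That of Mmp3 stands beside it because Mmp3 values were higher in RA, though this passed in no genotype of the main fit. Both are the 250 bases upstream of the RefSeq start (GRCm38.p6), Timp4 at chr6:115252206-115252455 on the minus strand and Mmp3 at chr9:7445572-7445821 on the plus strand. Capitals mark a match to AP-1 (TGANTCA) or to the TATA box (TATAAA) on either strand.
Timp4: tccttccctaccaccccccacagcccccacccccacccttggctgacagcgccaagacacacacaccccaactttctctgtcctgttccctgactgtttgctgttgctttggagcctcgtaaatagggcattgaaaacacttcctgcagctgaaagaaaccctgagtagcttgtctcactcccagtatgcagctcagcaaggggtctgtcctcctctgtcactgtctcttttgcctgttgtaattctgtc
Mmp3: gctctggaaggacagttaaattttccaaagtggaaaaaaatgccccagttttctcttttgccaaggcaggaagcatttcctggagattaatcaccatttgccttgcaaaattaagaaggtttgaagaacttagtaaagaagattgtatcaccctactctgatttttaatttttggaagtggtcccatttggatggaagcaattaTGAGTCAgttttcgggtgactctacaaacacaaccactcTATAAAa

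The Mmp3 stretch holds 1 AP-1 match beginning 46 bases before the start and 1 TATA match beginning 7 bases before it, which do not overlap. AP-1 matches occur in 6.75% and TATA matches in 12.4% of 32851 stretches of that length. The Timp4 stretch holds no match to these, to the GC box (GGGCGG, in 32.7% of stretches) or to the T-box motif (AGGTGT, 11.8%). The GC box was found before Mmp14, Timp1, Timp2 and Timp3. A match describes letters only, and Mmp2 and Mmp9 are named here without a sequence.

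Mmp9 fell from LA to RA in KO. The 3 KO animals had 7.42, 8.47 and 8.72 CPM in LA and 2.63, 2.72 and 2.66 CPM in RA. No KO RA library reached the level of a KO LA library, with RA lower by log2 -1.62 (3.07-fold, SE 0.38, edgeR adjusted p = 0.0147). The call was lost without KO RA replicate 1 (adjusted p = 0.0536), KO RA replicate 2 (0.0583), KO RA replicate 3 (0.0598) or KO LA replicate 3 (0.0529), with the log2 difference between -1.63 and -1.56. In Het the difference was -0.72 (SE 0.36, edgeR adjusted p = 0.29), and it passed with the animal as a block (0.0204 or 0.00524). In WT it was 0.33 (SE 0.47, edgeR adjusted p = 0.729), with 1.06 and an adjusted p of 0.0128 under the block in which the uncertain library was animal 2. WT LA replicate 3 weighs on this: without it the WT difference was -0.095, and without WT RA replicate 1 it was -0.29.

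Mmp2 was the other protease with lower values in RA. It was at 20.4 and 18 CPM in WT RA, 29.4, 34.6 and 26.1 CPM in Het RA and 31.9, 20 and 23.9 CPM in KO RA. All mutant RA libraries were below all mutant LA libraries, whereas WT LA replicate 3 (16.3 CPM) was below both WT RA libraries. RA minus LA was log2 -1.18 in WT (SE 0.50, edgeR adjusted p = 0.166), -1.41 in Het (SE 0.42, 0.07) and -1.47 in KO (SE 0.43, 0.058). With the animal as a block Mmp2 fell in Het (adjusted p = 0.00533 or 0.0471) and KO (0.00436 or 0.043), while in WT the blocks gave -0.50 (0.284) or -0.99 (0.201). Without WT LA replicate 3 the unblocked WT difference was -1.56 (adjusted p = 0.0296). The 15 fibroblast markers summed to 4020 to 6250 CPM in mutant LA and 4380 to 5320 CPM in mutant RA. Their mean log2 CPM was 6.63, 6.89 and 6.63 in Het LA against 6.48, 6.60 and 6.34 in Het RA, and 6.77, 6.42 and 6.54 in KO LA against 6.39, 6.20 and 6.24 in KO RA. This mean was lower in RA in all 6 mutant animals, as Mmp2 was, but the sum was not. The sum fell from LA to RA in Het replicate 2 (6250 to 5320 CPM) and KO replicate 1 (5810 to 4740 CPM). It was 5270 CPM in both atria of Het replicate 1. It rose in Het replicate 3 (5000 to 5180 CPM), KO replicate 2 (4020 to 4380 CPM) and KO replicate 3 (4280 to 4470 CPM). The part of these markers in the Mmp2 difference was not tested.

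Mmp3 was higher in RA than in LA of the same animal in 7 of 7 animals. It was at 14 and 14.2 CPM in WT RA, 21.1, 22.1 and 23.4 CPM in Het RA and 31.5, 13.9 and 14.5 CPM in KO RA, and RA did not overlap LA within a genotype, as was so for 24.8% to 41.7% of all genes. The log2 difference was 1.26 in WT (SE 0.46, edgeR adjusted p = 0.106), 1.16 in Het (SE 0.40, 0.11) and 0.88 in KO (SE 0.39, 0.235), none past the threshold. Animal blocks gave adjusted p of 0.0994 or 0.0798 in WT, 0.0863 or 0.0873 in Het and 0.205 or 0.207 in KO. Among the 7 animals, WT replicate 3 was the only WT animal and gave the highest fold of 8.26, against at most 2.98 in the mutants. Without WT LA replicate 3 the WT log2 difference was 0.88 (edgeR adjusted p = 0.18). The share of all genes with the same sign in all 7 animals was not computed.

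Mmp14 was nearly even between the atria, at 24.9 and 25.2 CPM in WT RA, 34.9, 39 and 30.3 CPM in Het RA and 38.4, 19.5 and 27.4 CPM in KO RA. Its RA minus LA log2 differences were 0.09, -0.12 and -0.26 in WT, Het and KO (SE 0.34, 0.30 and 0.30). KO animals kept their order from LA to RA for Mmp14, with replicate 1 highest and replicate 2 lowest.

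Timp1 and Timp3 were higher in RA of 7 of 7 animals with both atria known. The share of all genes with the same sign in all 7 was not computed. The only WT animal among them was replicate 3, whose LA library stood apart. That animal gave the highest folds, 3.3 for Timp1 and 1.68 for Timp3, against at most 1.98 and 1.26 in the mutants. WT LA replicate 2, not among these pairs, had Timp1 at 9.99 CPM, above every RA library. Timp1 was at 5.19 and 6.29 CPM in WT RA, 5.14, 6.26 and 3.71 CPM in Het RA and 5, 4.21 and 4.46 CPM in KO RA, and RA exceeded LA by 1.12 to 3.3-fold within animals. Its KO difference of log2 0.79 (SE 0.42, edgeR adjusted p = 0.335) passed under 1 of the 2 animal blocks (0.00447 or 0.312), and the blocks gave 1.06 (0.0043) or 0.083 (0.94) in WT, where the unblocked difference was 0.13. Without WT LA replicate 3 the unblocked WT difference of Timp1 was -0.24 (edgeR adjusted p = 0.769). Timp3 was at 408 and 372 CPM in WT RA, 376, 349 and 454 CPM in Het RA and 340, 496 and 436 CPM in KO RA, or 1.11 to 1.68-fold above LA of the same animal. RA minus LA for Timp3 was log2 0.59 in WT (SE 0.22, edgeR adjusted p = 0.108), 0.26 in Het (SE 0.20, 0.524) and 0.20 in KO (SE 0.20, 0.671). With the animal as a block Timp3 rose in WT (adjusted p = 0.000587 or 6.15e-07), Het (0.0179 or 0.00394) and KO (0.0468 or 0.0129). Timp2 was at 256 and 269 CPM in WT RA, 303, 290 and 263 CPM in Het RA and 245, 253 and 278 CPM in KO RA, with RA minus LA at log2 0.03, -0.22 and -0.30 and no call with or without the block.

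**Figure D3:**
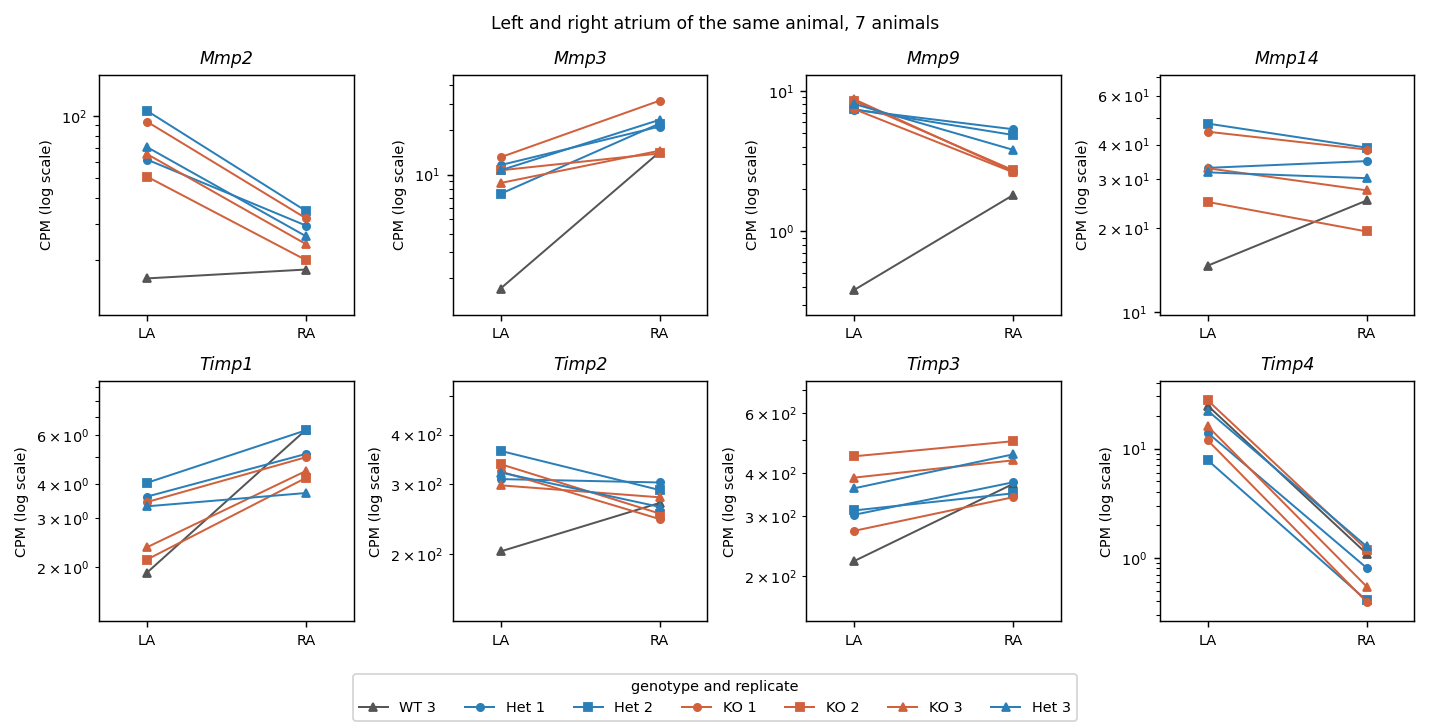
CPM on a log axis in LA and RA of the same animal for the 7 animals whose libraries are both known; each line is 1 animal, coloured by genotype. Timp4 drops in all 7 animals, Mmp3, Timp1 and Timp3 are higher in RA in all 7, and Mmp2 and Mmp9 drop in 6 of 7, the exception being WT animal 3.

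Ratios of a protease to an inhibitor within a library do not depend on scaling between libraries. They are descriptions of transcript levels per kilobase and were not tested. In WT LA the Mmp9 to Timp1 ratio came to 0.268, 0.0578 and 0.0502, against 0.511, 0.459 and 0.61 in Het LA and 0.542, 1 and 0.928 in KO LA. The RA libraries gave 0.18 and 0.0722 (WT), 0.26, 0.194 and 0.257 (Het), and 0.132, 0.162 and 0.149 (KO). The ratio was thus higher in all mutant LA libraries than in any WT library or any RA library. Mmp2 to Timp2, the pair of gelatinase A and its partner, gave 0.164, 0.293 and 0.0928 for WT LA, with 0.092 and 0.0772 for WT RA; in the mutants it was 0.174 to 0.336 in LA and 0.0912 to 0.151 in RA. Mmp3 to Timp1 was 0.374 to 1.1 in WT LA, 0.907 to 1.59 in Het LA and 1.84 to 2.48 in KO LA. In RA that ratio was 1.11 and 1.33 for WT, 1.74 to 3.11 for Het and 1.61 to 3.11 for KO, while Mmp14 to Timp2 stayed between 0.0472 and 0.102 throughout.

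**Figure D4:**
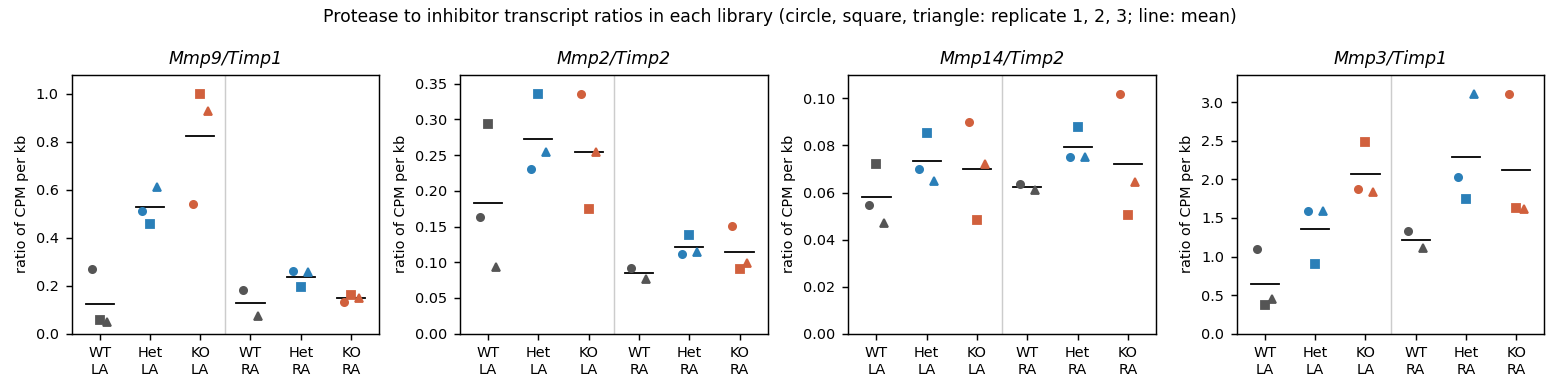
Ratios of CPM per kilobase of a protease to an inhibitor (vertical axis) in each library, for Mmp9/Timp1, Mmp2/Timp2, Mmp14/Timp2 and Mmp3/Timp1; points are libraries, lines group means. Mmp9/Timp1 is 0.459 or more in every Het and KO LA library and at most 0.268 in the others.

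Of the other 19 MMP genes, 10 were tested within an atrium and 11 between atria. For KO against WT in LA, 1 rose and 0 fell (median log2 0.16); for Het, 2 rose and 0 fell (median 0.29). In RA 0 rose and 0 fell in either genotype. Over all genes tested the median was 0 in the LA comparisons, and 7.81% passed for KO and 9.4% for Het. WT LA replicate 3, low in fibroblast and macrophage markers, enters the LA medians of this and the following lists. Those medians were not computed without it. The riser shared by both was Mmp16, a membrane-type MMP, at 0.572 to 1.39 CPM in WT, 2.61 to 3.28 CPM in Het and 1.99 to 2.85 CPM in KO LA (KO log2 1.03, SE 0.28, edgeR adjusted p = 0.0481, passing in 7 of 18 alternatives; Het 1.35, SE 0.28, 0.0172, in 16 of 18). Mmp12, the macrophage elastase, was scarce in LA (0 to 2 counts a library in WT, 7 to 16 in Het and 7 to 12 in KO) and at 2.29 ± 0.553 CPM (SD, n = 2) in WT RA. It rose from LA to RA in WT, Het and KO with fitted log2 differences of 5.49, 2.75 and 2.76, of which the first depends on the prior count (edgeR adjusted p = 2.4e-05, 0.00014 and 0.000223), with a call in 25 of 25 alternatives each. Macrophage markers summed to 137 to 513 CPM in WT LA and 502 and 730 CPM in WT RA; their part in the Mmp12 difference was not tested.

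Among 24 genes for MMP activators, other inhibitors and docking proteins, 20 were tested in LA. For KO 0 rose and 1 fell (median log2 0.27), and for Het 3 rose and 1 fell (median 0.37), where 7.81% and 9.4% of all genes passed. Bsg, which encodes the MMP inducer basigin, fell in KO LA (log2 -0.31, SE 0.08, edgeR adjusted p = 0.0359, in 8 of 18 alternatives). The gene that fell in Het LA was Bsg as well, with means of 432 CPM in Het, 423 CPM in KO and 517 CPM in WT LA. In Het LA the proprotein convertase gene Pcsk5 (0.76, adjusted p = 0.0152), the matrix protein gene Thbs2 (1.47, 0.0287) and Reck, a membrane inhibitor of MMPs (0.74, 0.0361), rose by these log2 amounts. These calls held in 16, 11 and 10 of 18 alternatives. A2m, the broad protease inhibitor alpha-2-macroglobulin, had 2 to 10 counts in each LA library and 482 to 1265 in each RA library, and it rose from LA to RA with fitted log2 differences of 7.48, 8.11 and 7.29 in WT, Het and KO (edgeR adjusted p = 1.62e-08, 3.64e-09 and 2.26e-09). This is the reverse of the atrial pattern of the inhibitor Timp4. Furin, the convertase that activates the MMP14 precursor, rose from LA to RA in WT (log2 0.33, adjusted p = 0.0117) and KO (0.27, 0.0249). Of 21 genes tested between the atria, 2 rose and 1 fell in WT, 1 rose and 0 fell in Het, and 2 rose and 1 fell in KO. Among all genes, 11.9%, 7.69% and 8.35% passed in WT, Het and KO. The falls were Itgav in WT (in 20 of 25 alternatives) and Plau in KO (in 13 of 25). In RA, 1 of 21 rose in Het against WT (Pcsk6, in 8 of 18 alternatives) and 0 in KO.

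Among 25 ADAM and ADAMTS proteases, which are relatives of the MMPs, 23 were tested. TIMP3 also inhibits some of these proteases, but not all. In LA, 2 rose in KO (median log2 0.20) and 4 in Het (median 0.28), and in RA 2 rose in KO and 0 in Het; 0 fell. The shares of all genes passing were 7.81% (KO) and 9.4% (Het) in LA, and 0.523% and 0.57% in RA. Adam19, a membrane protease known from heart development, was at 49.2 ± 4.25 CPM in WT, 94.6 ± 10.1 in Het and 104 ± 7.31 in KO LA (SD, n = 3), with log2 differences of 1.05 for KO (edgeR adjusted p = 0.00191, in 18 of 18 alternatives) and 0.92 for Het (0.00199, in 17 of 18). In KO RA it rose by 1.11 (adjusted p = 0.0333, in 12 of 18). Between the atria Adamts19 fell in RA in WT, Het and KO (log2 -0.92, -0.79 and -0.59) and Adamts6 rose (1.27, 0.94 and 1.16), each in 25 of 25 alternatives. Adamts5, an aggrecan and versican protease, fell from LA to RA in WT (-1.05, edgeR adjusted p = 0.0068), Het (-0.69, 0.0388) and KO (-0.89, 0.00908).

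Of 30 matrix substrates, 28 were tested. In LA 1 rose in KO (median log2 0.31) and 1 in Het (median 0.45), where 7.81% and 9.4% of all genes passed. In both cases this was Lama4, a laminin chain of vessel basement membranes (log2 0.69 in KO, edgeR adjusted p = 0.016, and 0.59 in Het, 0.0205). The Lama4 call held in 16 of 18 alternatives for KO and in 14 of 18 for Het. Both medians include WT LA replicate 3, whose fibroblast markers summed to 1630 CPM against 3510 and 4170 CPM in the other WT LA libraries. From LA to RA, 2 rose and 2 fell in WT, 0 rose and 4 fell in Het, and 0 rose and 5 fell in KO (median log2 -0.17, -0.30 and -0.32). Of all 18018 genes tested, 957 rose and 1182 fell in WT, 599 rose and 787 fell in Het, and 660 rose and 844 fell in KO. The nidogen gene Nid2, a basement membrane linker, fell in RA in all genotypes (log2 -0.43, -0.40 and -0.52), in 20, 20 and 25 of 25 alternatives. Of 25 inducers of MMP and TIMP transcription, 19 were tested in LA, and 1 rose in KO (median log2 0.32) and 3 in Het (median 0.50), with Jund, an AP-1 subunit, in both (log2 0.44, edgeR adjusted p = 0.0442, and 0.46, 0.0356). The Jund call held in 9 of 18 alternatives for KO and in 11 of 18 for Het. From LA to RA, 22 inducers were tested, and 1 rose and 0 fell in WT (Rela). In Het 2 rose and 2 fell, and in KO 1 rose and 1 fell. Il1a, which encodes a cytokine that induces Mmp3 and Mmp9, rose from LA to RA in Het and KO (log2 2.07 and 2.03) at levels below 1 CPM. Tgfb3 fell in Het and KO, in 25 of 25 alternatives each (log2 -0.44 to -0.355 and -0.444 to -0.328). The other calls in Het were Il1b, which rose, and Jund, which fell.

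The genes whose log2 CPM followed each member most closely over the 17 libraries were listed as a description; the libraries share atrium, genotype, animals and depth. Mmp2 ran with Vcan, the proteoglycan versican (r = 0.983), Pcdh18 (0.977) and Col15a1 (0.971). Mmp14 ran with the fibroblast genes Col3a1 (r = 0.927) and Lum (0.913) and with Plat (0.908), the tissue plasminogen activator. Mmp9 ran with Rasa3 (r = 0.929), Fcrls (0.922) and Fyn (0.92), and Mmp3 with Gabra3 (0.96), Setd5 (0.957) and Sfrp2 (0.948). Among inhibitors, Timp2 ran with Cd34 (r = 0.943), Lamc1 (0.918) and Axl (0.916), Timp3 with Ahnak (0.946), Slc43a3 (0.944) and Hnrnpul1 (0.919), and Timp4 with Nova1 (0.969), Ptgfr (0.968) and the water and glycerol channel gene Aqp7 (0.967). Timp1 had the lowest such values, with Acsf2 at r = 0.854, Tmem127 at 0.844 and Slc25a1 at 0.842.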

How the data were processed

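RNA was prepared from atria with a Direct-zol kit and libraries were enriched for mRNA (KAPA mRNA HyperPrep) and sequenced on a NovaSeq, per the labels' protocols. Values are the whole-number counts per gene that the authors deposited. Per the submitters' processing notes the build was mm10, with DESeq2 1.30.1 and STAR 2.7.9a; the sources used here do not give the counting tool, annotation or strand. Of 56691 gene IDs, 52073 matched a symbol in GENCODE M21 (GRCm38), which also gave exon lengths.

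Counts were analysed with edgeR 4.0.16 in R 4.3.3 (filterByExpr with a minimum count of 10, TMM, robust quasi-likelihood F tests), with Benjamini-Hochberg adjustment over all genes and a threshold of 0.05. Genotype comparisons used all libraries of 1 atrium; atrium comparisons and interactions used all 17. CPM are TMM-scaled, and log2 levels for correlations have a prior count of 2. The SE of a log2 difference is the difference divided by the square root of F.

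LA and RA libraries share an animal by the sample titles, and their deviations from group means correlated at 0.412 to 0.783 in the 7 animals with both atria known (0.377 for the uncertain library taken as WT animal 1), so blocked values stand beside atrium results. Alternatives were DESeq2 1.42.0, limma-voom (limma 3.58.1), RLE or no scaling, no filter, each library left out, only the groups compared, 1 fit for both atria, replicate or animal blocks, Xist as a covariate and the identical columns as 2 libraries. Named genes are the 8 members, up to 3 called genes with the smallest p per pathway list and comparison, and the 3 closest correlates per member among genes of at least 5 CPM with a proper symbol. Members and lists were chosen with earlier results of these data known. Upstream sequences are RefSeq's, for 6 of 8 members.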

Additional observations from a re-analysis of the deposited data

How the results depend on the processing

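Of 88 member comparisons, 56 were called in no setting, and the Timp4 difference between the atria was called in 25 of 25 alternatives in each genotype. The number of members called moved as follows. With DESeq2 it was 1 for Het and WT in LA, 1 for Het and WT in RA, and 2, 2 and 3 for the atria in WT, Het and KO; with limma-voom it was 1 for Het in LA and 3 for the atria in Het and in KO. Without scaling beyond library totals, which moved the median of all genes by 0.18 (KO) and 0.24 (Het) in LA, it was 2 for Het in LA and 2 for the atria in WT. Calls over all genes then rose as well, from 1596 to 4528 for Het and from 1326 to 2993 for KO in LA. Without a filter it was 1 for KO in LA (Timp2, with Mmp9 lost), 1 for Het in LA (Timp2), 1 for KO and 2 for Het in RA, 1 for KO against Het in RA, 4, 5 and 6 for the atria in WT, Het and KO, and 1 for the KO interaction. Calls over all genes without the filter were 892 for Het in RA (98 in the main fit). They were 210 for KO against Het in RA and 140 for the KO interaction, each from 0 in the main fit. With only the groups compared it was 0 for KO in LA and 1 for Het in RA; with both atria in 1 fit, 2 for Het in LA; with Xist as a covariate, 0 for KO in LA; with the identical columns as 2 libraries, 3 for the atria in WT, 2 in Het and 3 in KO. With 1 library left out it was 0 to 1 for KO in LA, 0 to 1 for Het in LA and in RA, 0 to 1 for KO against Het in RA, 1 to 2 for the atria in WT, and 1 to 4 in Het and in KO. Over all genes, 249 were called for KO in LA without KO LA replicate 3, against 1326 in the main fit. Over the alternatives, calls among all genes ranged from 249 to 2993 for KO and from 0 to 4528 for Het in LA. In RA they reached 909 for KO and 892 for Het, and 210 for KO against Het. Between the atria they reached 3901 in WT and ranged from 952 to 2929 in Het and from 1014 to 2863 in KO. The other settings are not listed singly, so a moved count of members there is not a result about the members. Without KO RA replicate 1, the library highest in Mmp3, Het minus WT in RA for Mmp3 was 0.64 (edgeR adjusted p = 0.012). KO minus Het was then -0.64 (edgeR adjusted p = 0.0372), against -0.15 with all libraries. The cause of these and the other changes was not tested.

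Replicate numbers did not pair the genotypes (correlations of -0.145 to 0.275 over 16 pairs); with that number as a block 0 members were called for KO in LA, with Mmp9 at an adjusted p of 0.0808. With the animal as a block the calls between the atria were 3, 4 and 5 in WT, Het and KO (identical library as WT animal 1) or 3, 4 and 4 (animal 2). Of all genes, 18.6%, 16.3% and 15.9% passed in WT, Het and KO under the first block and 21.7%, 15.6% and 15.4% under the second. The second block also gave 2 calls (Mmp9 and Timp3) in each interaction, where the shares of all genes called rose too. Under the first the Timp1 interactions turned to -0.25 (KO) and -0.61 (Het).

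Signs turned only in member comparisons that were not called in the main analysis. Single settings gave 0.014 for Mmp9, KO minus WT in RA (limma-voom), and 0.081 (no scaling) and 0.012 (no filter) for Timp3, Het minus WT in RA. With Xist as a covariate Het minus WT was 0.077 for Timp4 in LA and, in RA, -0.44 for Mmp3, -0.20 for Mmp14, 0.38 for Timp3 and 0.57 for Timp4; KO minus WT in RA was -0.058 for Mmp14 and 0.001 for Timp2. With that covariate, KO minus Het was 0.22 for Mmp2, -0.015 for Mmp9, 0.23 for Mmp14, -0.24 for Timp3 and -0.25 for Timp4 in LA, and 0.10 for Mmp2, 0.50 for Mmp3, 0.14 for Mmp14, 0.007 for Timp1 and -0.16 for Timp3 in RA.

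Leaving out 1 library turned signs in these ranges. In LA they were, for Het minus WT, Timp1 (-0.89 to 0.40), and for KO minus Het, Mmp2 (-0.45 to 0.085), Mmp3 (-0.043 to 0.27), Mmp14 (-0.37 to 0.072), Timp2 (-0.10 to 0.019) and Timp4 (-0.053 to 0.77). In RA they were, for KO minus WT, Mmp9 (-0.49 to 0.55), Timp2 (-0.077 to 0.008), Mmp3 (-0.004 to 0.70), Mmp14 (-0.12 to 0.39) and Timp3 (-0.013 to 0.24), for Het minus WT, Timp3 (-0.12 to 0.065), and for KO minus Het, Timp1 (-0.32 to 0.056), Timp4 (-0.80 to 0.26), Mmp3 (-0.64 to 0.059) and Timp3 (-0.005 to 0.25). Between the atria they were Timp1 (-0.24 to 1.05), Mmp9 (-0.29 to 0.91), Mmp14 (-0.15 to 0.35) and Timp2 (-0.12 to 0.10) in WT and Mmp14 (-0.22 to 0.086) in Het. For the KO interaction they were Timp1 (-0.25 to 1.04), Mmp2 (-0.87 to 0.10), Mmp3 (-0.87 to 0.011) and Timp4 (-0.84 to 0.18), and for the Het interaction Timp1 (-0.60 to 0.69), Mmp2 (-0.81 to 0.15), Mmp3 (-0.35 to 0.29), Mmp14 (-0.47 to 0.030) and Timp4 (-0.15 to 0.74). Depth limits Timp4 in RA and Mmp9, whose lowest counts in a library were 9 and 6.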

Other observations

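KO replicate 1, whose Xist level resembled Het, was the highest KO library in RA for 3 proteases, a pattern chosen after its values were seen and not tested. It had 31.9 CPM of Mmp2 against 20 and 23.9 CPM in KO RA replicates 2 and 3, 31.5 CPM of Mmp3 against 13.9 and 14.5 CPM, and 38.4 CPM of Mmp14 against 19.5 and 27.4 CPM. The Het RA libraries, also high in Xist, had 26.1 to 34.6 CPM of Mmp2, 21.1 to 23.4 CPM of Mmp3 and 30.3 to 39 CPM of Mmp14. Mmp9 went the other way. KO RA replicate 1 was the lowest KO RA library at 2.63 CPM, against 2.72 and 2.66 CPM, and Het RA had 3.8 to 5.33 CPM. The order was not particular to RA. In LA, KO replicate 1 was also the highest KO library for Mmp2 (93.9 CPM), Mmp3 (13.1 CPM) and Mmp14 (44.5 CPM). It was the lowest there for Mmp9 (7.42 CPM).

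Timp4 and its host gene Syn2 differed between genotypes unequally. Syn2 was lower in Het than in WT in LA (log2 -1.37, edgeR adjusted p = 0.0116) and RA (-1.38, 0.0247), while Timp4 gave -0.69 (0.354) and -0.36 (0.8). The collagenase gene Mmp13, outside the rule for named genes and chosen after its values were seen, was at 0.0635 to 1.59 CPM in LA and 1.09 to 5.52 CPM in RA.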
